A study of Mus musculus with 12 samples.

Results

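The cytosolic ribosomal protein genes were taken as all genes whose symbol was Rpl or Rps followed by a number, with an optional a, l, x or y ending, together with Rplp0, Rplp1, Rplp2 and Rpsa. Pseudogenes and the Rps6k kinases were left out. By this rule 81 of the 20886 genes with a symbol on the array were members, 49 of the large subunit and 32 of the small subunit, and their 168 probes were among 39429. Each gene was read by its brightest probe. Liver RNA of 12 female C57BL/6N mice was measured on 12 one-colour arrays, with 3 mice in each of 4 diet groups. The mice were 6 weeks old when bought and were acclimated for 2 weeks, and the livers were taken after 6 months on the diets. Ctrl mice were fed a normal formula diet with corn starch and sucrose as its carbohydrates, and RS mice the same diet with resveratrol. In the diet of the DJ group Dongjin rice took the place of the starch and sucrose, and in that of the DJ526 group the rice DJ526 did, a Dongjin rice that carries a transferred gene for resveratrol synthesis. All mice were of the same strain and sex, and DJ526 differs from DJ in the transferred gene as well as in resveratrol.

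The ribosome is built from ribosomal RNA and a fixed set of proteins, so that the genes of both subunits are transcribed at high and balanced rates in cells that make much protein, such as hepatocytes. Messenger RNAs of ribosomal proteins typically begin with a C followed by a run of pyrimidines, the terminal oligopyrimidine (TOP) motif, through which their translation is set by the kinase mTOR. Liver ribosomes and their messengers are known to follow feeding and amino acid supply.

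The start sites of a few members are shown because this motif is the feature of the class that the choice of members did not use. Of the 81 members, 60 matched a RefSeq promoter window (GRCm38.p6, 300 bases, 250 before and 50 from the annotated start). No window was used here for the other 21. Windows of 30 bases are given 5′ to 3′, 15 before and 15 from the annotated start, and capitals mark a C followed by at least 4 bases that are each C or T and beginning within 10 bases of the start. The windows were those of Rps21 at chr2:180257364-180257393 on the plus strand, Rps26 at chr10:128626492-128626521 on the minus strand, Rps6 at chr4:86857353-86857382 on the minus strand, Rpl35 at chr2:39005117-39005146 on the minus strand, Rpl38 at chr11:114668565-114668594 on the plus strand, Rplp2 at chr7:141447636-141447665 on the plus strand, Rpl36a at chrX:134585639-134585668 on the plus strand, Rplp0 at chr5:115559452-115559481 on the plus strand and Rpsa at chr9:120127751-120127780 on the plus strand.
Rps21: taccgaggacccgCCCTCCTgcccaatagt
Rps26: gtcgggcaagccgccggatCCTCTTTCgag
Rps6: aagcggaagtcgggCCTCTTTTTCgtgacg
Rpl35: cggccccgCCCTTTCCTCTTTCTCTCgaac
Rpl38: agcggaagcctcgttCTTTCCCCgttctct
Rplp2: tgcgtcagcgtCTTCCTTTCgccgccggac
Rpl36a: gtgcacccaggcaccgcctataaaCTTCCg
Rplp0: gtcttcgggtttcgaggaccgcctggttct
Rpsa: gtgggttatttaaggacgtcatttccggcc
The first 6 hold long runs, Rpl36a a short one next to a TATA-like stretch, and the last 2 none within 10 bases of the annotated start.

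A run of at least 5 pyrimidines led by C began at the annotated start itself in 14 of 60 members (23.3%) and in 3.01% of all 27025 genes with a window. Within 10 bases of it one began in 39 of 60 members (65.0%) and in 34.4% of all genes. Of other sequences searched on both strands over the 300 bases, CCGGAAGT, an ETS factor sequence, occurred in 11 of 60 members (18.3%) and 4.31% of all genes, and GGGCGG, an SP1 sequence, in 35 of 60 (58.3%) and 38.2%. TATAAA occurred in 7 of 60 (11.7%) and 15.7%, and CCAAT, the CCAAT box, in 18 of 60 (30.0%) and 41.1%. These sequences are descriptions of the annotated windows and were not tested. Among the 77 brightly measured members the median log2 change between DJ526 and Ctrl was -0.081 for the 36 with a run near the start and -0.082 for the 21 without one. It was -0.054 and -0.032 for RS against Ctrl, -0.029 and -0.021 for DJ against Ctrl, -0.053 and -0.078 for DJ526 against DJ and -0.023 and -0.034 for DJ526 against RS.

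Every value below is the log2 of the processed signal of a probe minus the log2 of the 75th percentile of its array, so that a difference of 1 is a 2-fold difference. The 75th percentile of the 12 arrays lay between 953 and 1167 signal units, and on each array 73.0% to 80.8% of spots exceeded the scanner software's background limit, called well above background here. All 12 hepatocyte markers (such as Alb and Ttr) were well above background on all 12 arrays, with a summed level of 3513 to 3764 times the 75th percentile in Ctrl, 3603 to 3784 in RS, 3787 to 4050 in DJ and 3361 to 3595 in DJ526. The 9 Kupffer cell markers summed to 104 to 182 in Ctrl and 84.4 to 126 over the other groups, and the 10 lymphocyte markers to 20.5 to 34.8 and 28.4 to 42.5. The part of these markers in the results below was not tested, and fewer cells of a type and less RNA per cell cannot be told apart in whole liver. The arrays lay on 3 slides of 4 arrays. Slide 1 held the 3 Ctrl arrays and DJ replicate 1, slide 2 the other DJ arrays with RS replicates 1 and 2, and slide 3 all DJ526 arrays with RS replicate 3. No slide held both Ctrl and RS or both Ctrl and DJ526. The labels do not give the cage of a mouse. One column of a sample list of the study has DJ and RS exchanged relative to the labels, which were followed here. With that exchange the values given for RS and DJ change places. The median log2 change of the members for rice against starch and sucrose is then -0.057 in place of -0.023. At an unadjusted limma p under 0.05 there are then 11 members in place of 1, and 3968 of 39429 probes in place of 1802.

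Ribosomal protein genes were among the steadily measured genes of these livers. In 78 of the 81 members the probe was well above background on all 12 arrays. Rps4l, a relative of Rps4x, was 1 of these 78 but had a lower level than the others. The other 77, called brightly measured here, had mean levels between 4.71 and 8.04. Together the 81 made up 3.51% to 3.86% of the signal of an array. The SD of a member over the 12 arrays had a median of 0.082, and over the 1672 probes with a mean level in the same range it had a median of 0.107. The 3 with the smallest spread among the well measured members were Rps29, a zinc-binding protein of the small subunit, Rpl15 of the large subunit core and Rpl6, with SDs of 0.039, 0.044 and 0.049. The 3 with the widest spread were Rps4l (0.567), Rpl36a (0.153), a protein at the exit site for transfer RNA, and Rpl18 (0.143). In Rpl18 this came from 1 array, as DJ replicate 3 was at 4.78 and the other 11 arrays were between 5.15 and 5.34.

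**Figure D1:**
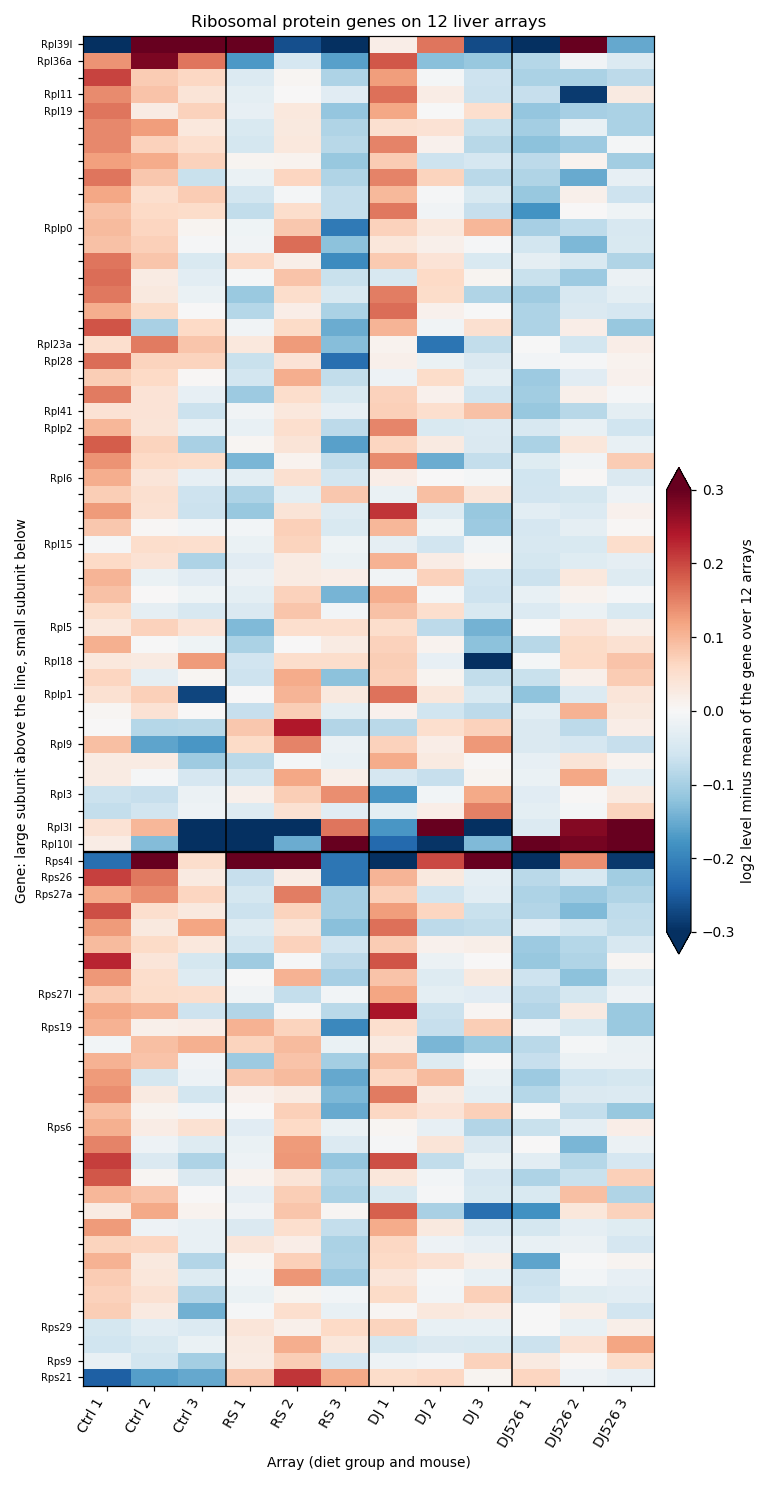
Log2 level of the 81 ribosomal protein genes minus the mean of the gene over 12 arrays, with arrays in columns by diet group and genes in rows, sorted within each subunit by the log2 change between DJ526 and Ctrl; some of the genes described in the text are named. The colour scale ends at -0.3 and 0.3; most rows are pale, Ctrl replicate 1 is red in most rows, and Rps21 in the bottom row is blue in the 3 Ctrl arrays.

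No ribosomal protein gene passed the test in any comparison of diets. limma with Benjamini-Hochberg adjustment over all 39429 probes called 0 of 81 members in each of 8 comparisons, namely each of the 3 test diets against Ctrl (in the order RS, DJ and DJ526), the resveratrol rice against its parent rice DJ and against RS, rice against starch and sucrose, the difference between the 2 effects of resveratrol, and any difference among the 4 diets. Over all probes the called share was 0% for RS and DJ against Ctrl, 0.00507% for DJ526 against Ctrl, 0.0101% for DJ526 against DJ and 0.00761% for DJ526 against RS. It was 0% for rice and for the difference between effects and 0.00507% for any difference. At an unadjusted limma p under 0.05 there were 5, 3, 12, 2, 1, 1, 3 and 4 members in the same order, which is 6.17%, 3.7%, 14.8%, 2.47%, 1.23%, 1.23%, 3.7% and 4.94% of them. The share of all probes at that p was 6.00%, 5.22%, 10.8%, 9.81%, 5.5%, 4.57%, 6.09% and 7.70%. The methods' t-test called 0 members after adjustment as well. At its unadjusted threshold it had 11, 4, 22, 10, 1 and 1 members in the first 6 comparisons. Of the 39361 to 39408 probes tested, 1975, 1817, 5049, 4265, 2415 and 1458 were under that threshold. The criterion of the study's methods, a Z ratio beyond 1.5 with an unadjusted p under 0.05, held for 0 members in the 5 comparisons between 2 groups, where it held for 1.69%, 1.36%, 3.87%, 3.78% and 2.04% of all probes. Adjusted p-values depend on the number of probes, and 3 mice a group limit what can be called.

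The changes were small, and with the 75th percentile scaling and no slide in the fit most were below 0. The median log2 change of the members was -0.054 for RS, -0.028 for DJ and -0.082 for DJ526 against Ctrl, -0.052 for DJ526 against DJ and -0.026 for DJ526 against RS. The changes of the 77 brightly measured members lay between -0.32 and 0.32 in all of them. Those of all 81 members, with Rps4l and the dim paralogs, lay between -1.12 and 0.88. Of the 81, 67 were below 0 in RS, 56 in DJ and 66 in DJ526 against Ctrl, 62 against DJ and 61 against RS. Over all probes 43.3%, 53.4%, 46.7%, 43.8% and 50.6% were below 0, and among the probes in the same range of levels 55.7%, 48.2%, 64.7%, 68.7% and 60.6%. The median change of those probes was -0.016, 0.004, -0.046, -0.052 and -0.023. With the slide as a fixed block the medians of the members were above 0, at 0.056, 0.021, 0.0995, 0.0488 and 0.019, and with the slide as a random block they were below 0, at -0.041, -0.019, -0.054, -0.035 and -0.015, so that the sign of the class depends on how the slide enters the fit. The median of all probes with the fixed block was -0.0089, -0.015, -0.125, -0.103 and -0.096 in the same order. With the fixed block 67 of the 81 members were above 0 in DJ526 against Ctrl. The share of all probes above 0 in that fit is not given. In that fit DJ against Ctrl rests on slide 1 alone, with DJ replicate 1 as its only DJ array. Likewise DJ526 against RS rests on slide 3 alone, with RS replicate 3 as its only RS array. DJ526 against Ctrl rests on both of these single arrays, so that the values with the fixed block hang on few arrays. Without scaling between arrays the median of the members was 0.101 for DJ526 against DJ and 0.035 for DJ526 against RS. The median of all probes was then higher, at 0.193 and 0.058. Without Ctrl replicate 1 the median of the members was 0.0089 for DJ against Ctrl, where that of all probes was 0.020. Without RS replicate 2 it was 0.0070 for DJ526 against RS, where that of all probes was -0.028. The medians of both subunits were alike, -0.078 for the large and -0.087 for the small subunit in DJ526 against Ctrl.

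**Figure D2:**
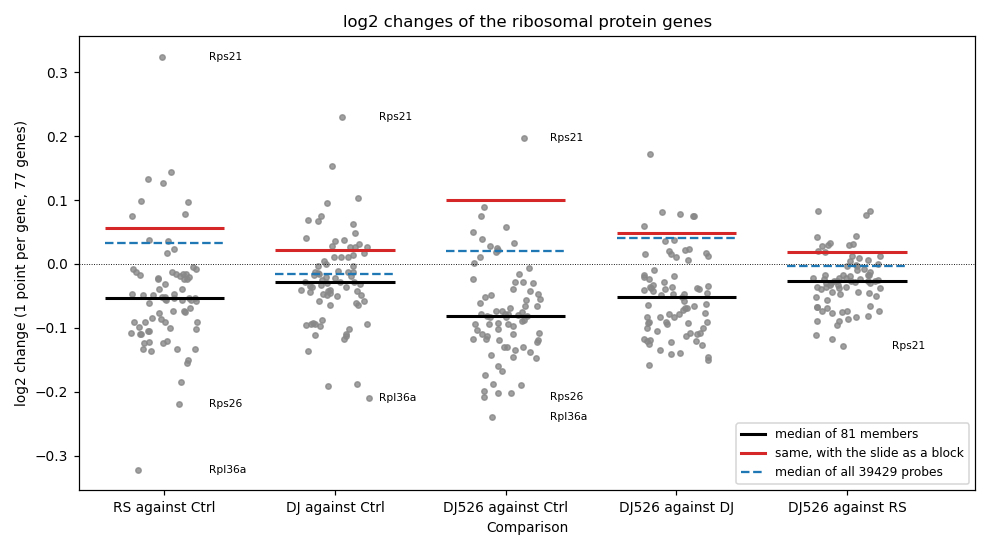
Log2 change of the 77 brightly measured ribosomal protein genes in each of 5 comparisons, 1 grey point per gene, with Rps21, Rpl36a and Rps26 named where their points lie outermost. The black line is the median of all 81 members and lies below 0 in every comparison. The red line is the same median with the slide as a block and lies above 0. The dashed line is the median of all 39429 probes without the slide in the fit.

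Members whose 3 mice of one group all lay beyond the 3 of the other were counted in each direction. In RS, 12 members (14.8%) lay below Ctrl and 4 (4.94%) above, with 3.99% and 6.25% of all probes. In DJ, 5 (6.17%) lay below and 4 (4.94%) above, with 4.87% and 4.49% of all probes. In DJ526, 25 (30.9%) lay below and 4 (4.94%) above, with 8.08% and 12.5% of all probes. DJ526 lay below DJ in 18 members (22.2%) and above in 1 (1.23%), with 6.29% and 12.1% of all probes, and below RS in 4 (4.94%) and above in 0, with 6.15% and 4.99%. For rice against starch and sucrose 0 members lay above and 0 below, with 0.0482% and 0.0735%. The share of members lying below thus exceeded that of all probes for RS and DJ526 against Ctrl and for DJ526 against DJ. For DJ against Ctrl it was near that of all probes, at 6.17% beside 4.87%. In all of these comparisons the class median is above 0 with the slide as a fixed block, and the median of all probes is below 0. No such share is given for the probes in the same range of levels. Their median change in DJ526 against DJ was -0.052, as was that of the members. The 3 comparisons with Ctrl share the Ctrl arrays.

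**Figure D3:**
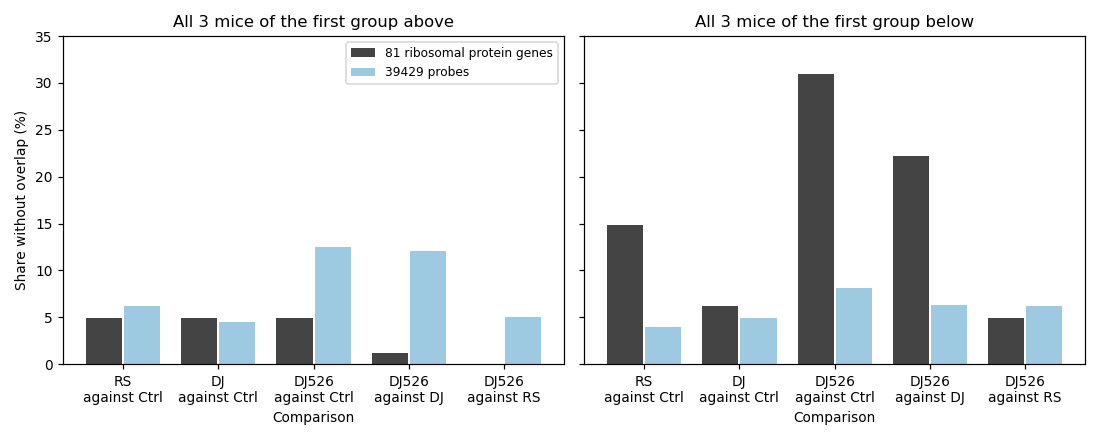
Share of the 81 ribosomal protein genes (dark bars) and of all 39429 probes (light bars) whose 3 mice of the first group all lay above (left) or below (right) the 3 of the second, in percent, for 5 comparisons. The tallest dark bars are the 30.9% below Ctrl and the 22.2% below DJ in DJ526.

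Rps21, a small protein of the small subunit that takes part in maturation of its ribosomal RNA, had the highest log2 change of the brightly measured members in each comparison of a test diet with Ctrl. Its level was 5.11, 5.19 and 5.20 in Ctrl, 5.43, 5.57 and 5.47 in RS, 5.41, 5.41 and 5.36 in DJ and 5.42, 5.34 and 5.33 in DJ526. All 9 mice of the test diets were above all 3 Ctrl mice. The log2 change was 0.32 in RS (standard error, SE, 0.060, limma adjusted p = 0.328), 0.23 in DJ (limma adjusted p = 0.75) and 0.20 in DJ526 (limma adjusted p = 0.279), each with that SE. These correspond to 1.25-fold, 1.17-fold and 1.15-fold of the Ctrl level, and none passed the adjustment. On slide 1 alone, DJ replicate 1 lay 0.24 above the mean of the 3 Ctrl arrays. With the slide as a block the changes were 0.36, 0.24 and 0.25. The DJ value of that fit is the slide 1 difference again. Its RS and DJ526 values reach Ctrl only through DJ replicate 1, so that these are not separate checks. RS and DJ526 also did not overlap, with DJ526 lower by 0.13 on the log2 scale (limma adjusted p = 0.922), but higher by 0.048 after normexp background correction. The array holds 1 probe for Rps21, so that no second probe bears on it.

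Rps9, which lines the entry channel for messenger RNA, and Rpl3, which reaches towards the peptidyl transferase centre, were also named for higher values. Rps9 was at 6.06, 6.03 and 5.99 in Ctrl, 6.07, 6.08 and 6.16 in DJ and 6.11, 6.09 and 6.14 in DJ526, with changes of 0.076 (SE 0.058, limma adjusted p = 1.00) and 0.089 (limma adjusted p = 0.606). Rpl3 was at 5.20, 5.20 and 5.25 in Ctrl and 5.28, 5.34 and 5.40 in RS, a change of 0.13 (SE 0.074, limma adjusted p = 0.901). It was -0.13 with the slide as a block. The groups of these pairs lay apart by less than 0.05 between their nearest mice.

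Rpl36a and Rps26, which sits at the exit channel for messenger RNA and is mutated in Diamond-Blackfan anemia, a failure of red cell production, were named for lower values in 2 comparisons each. Rpl36a was at 5.22, 5.37 and 5.25 in Ctrl, 4.91, 5.04 and 4.92 in RS, 5.27, 4.96 and 4.97 in DJ and 5.0, 5.08 and 5.04 in DJ526. RS and DJ526 lay below Ctrl without overlap, and DJ replicate 1, on the slide of the Ctrl arrays, lay within the range of Ctrl while DJ replicates 2 and 3 lay with RS. The changes were -0.32 in RS (SE 0.087, limma adjusted p = 0.546) and -0.24 in DJ526 (limma adjusted p = 0.367), and 0.0022 and 0.12 with the slide as a block. The other 2 probes of Rpl36a had log2 changes of 0.019 and -0.13 in RS and of -0.018 and -0.13 in DJ526.

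Rps26 was at 6.33, 6.29 and 6.16 in Ctrl, 6.06, 6.15 and 5.91 in RS, 6.23, 6.16 and 6.10 in DJ and 6.05, 6.08 and 6.02 in DJ526. Its changes were -0.22 in RS (SE 0.076, limma adjusted p = 0.692) and -0.21 in DJ526 (limma adjusted p = 0.367). The nearest mice of RS and Ctrl were 6.15 and 6.16. With the slide as a block the changes were -0.054 and 0.084.

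**Figure D4:**
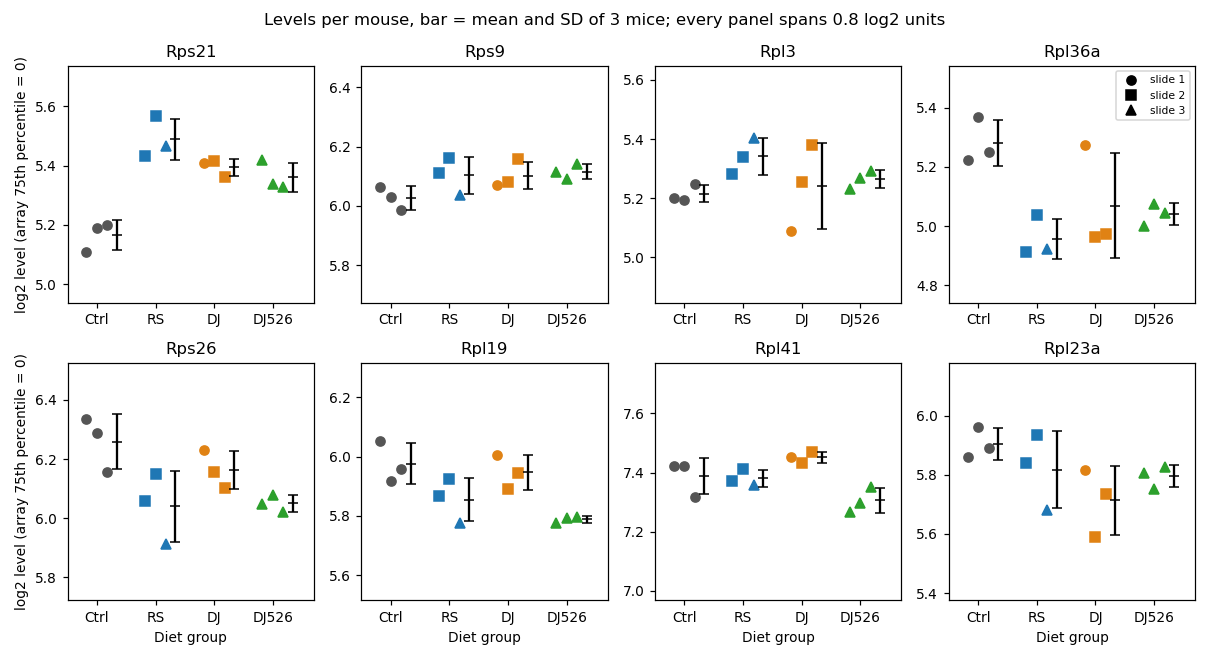
Log2 level of 8 ribosomal protein genes in each of the 12 mice by diet group, with circles, squares and triangles for slides 1, 2 and 3, and the mean and SD of 3 mice beside the points; every panel spans 0.8 log2 units. The 9 test mice lie above Ctrl in Rps21, and in Rpl36a the circle of DJ lies with the circles of Ctrl.

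In DJ against Ctrl the members named for lower values were Rpl23a, which stands at the exit of the peptide tunnel and contacts the signal recognition particle, and Rpl28, a large subunit protein. Rpl23a was at 5.86, 5.96 and 5.89 in Ctrl and 5.82, 5.59 and 5.74 in DJ, a change of -0.19 (SE 0.081, limma adjusted p = 0.940). Rpl28 was at 5.59, 5.48 and 5.48 in Ctrl and 5.43, 5.40 and 5.37 in DJ, a change of -0.12 (SE 0.071, limma adjusted p = 0.991). Rpl28 lay below Ctrl without overlap in RS and DJ526 too, by -0.18 and -0.10, which were -0.067 and 0.16 with the slide as a fixed block.

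In DJ526 against DJ they were Rpl19, a large subunit protein that also forms a bridge to the small subunit, and Rpl41, the smallest ribosomal protein. Rpl19 was at 6.01, 5.89 and 5.94 in DJ and 5.78, 5.79 and 5.80 in DJ526, a change of -0.16 (SE 0.064, limma adjusted p = 0.474). Rpl41 was at 7.45, 7.43 and 7.47 in DJ and 7.27, 7.30 and 7.35 in DJ526, a change of -0.15 (SE 0.058, limma adjusted p = 0.474). Without scaling between arrays these were -0.0061 and 0.0071, where the median of all probes moved by 0.19, and with the slide as a fixed block -0.0097 and -0.11. In DJ526 against RS, Rpl9, which lies near the site where translation factors bind, was at 7.40, 7.49 and 7.33 in RS and 7.30, 7.29 and 7.27 in DJ526, a change of -0.12 (SE 0.081, limma adjusted p = 0.986).

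The proteins of the stalk, which recruits the GTPase factors of translation, differed among themselves. Rplp0, the base of the stalk, was at 7.45, 7.42 and 7.36 in Ctrl, 7.34, 7.44 and 7.14 in RS, 7.42, 7.39 and 7.46 in DJ and 7.26, 7.28 and 7.31 in DJ526. DJ526 lay below Ctrl and DJ without overlap, by -0.13 and -0.14 (SE 0.076), and with the slide as a fixed block these were 0.12 and 0.11. Rplp1 differed by 0.010 and Rplp2 by -0.082 between DJ526 and Ctrl, with overlapping groups. In Rplp1 the spread came from Ctrl replicate 3, at 6.09 beside 6.41 and 6.43.

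Rpl5 and Rpl11 carry 5S ribosomal RNA into the large subunit and, when free, bind the p53 regulator Mdm2. Rpl11 was at 7.46, 7.40 and 7.35 in Ctrl, 7.29, 7.32 and 7.28 in RS, 7.48, 7.34 and 7.25 in DJ and 7.25, 7.03 and 7.34 in DJ526. RS and DJ526 lay below Ctrl, in DJ526 by -0.20 (SE 0.088, limma adjusted p = 0.450) and with replicate 2 at 7.03. The changes were 0.083 and 0.0075 with the slide as a fixed block. Rpl5 had log2 changes of -0.057, -0.10 and -0.028 in RS, DJ and DJ526. Of the 8 proteins around the tunnel exit, 3 lay below Ctrl without overlap in DJ526 (Rpl19, Rpl23a and Rpl35) and none above, with a median of -0.11, where 8.08% of all probes lay below and 12.5% above. These 3 were at 0.021, 0.25 and 0.11 with the slide as a fixed block.

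Rps6, the substrate of the S6 kinases in mTOR signalling, was at 6.51, 6.43 and 6.45 in Ctrl, 6.37, 6.47 and 6.39 in RS, 6.41, 6.38 and 6.32 in DJ and 6.34, 6.38 and 6.43 in DJ526. Both rice diets lay below Ctrl without overlap, by -0.094 and -0.083 (SE 0.059), and with the slide as a fixed block these were -0.052 and 0.014. The nearest DJ526 and Ctrl mice were both at 6.43 after rounding, and RS overlapped with Ctrl. Rps27a, which is made as a fusion with ubiquitin, had a log2 change of -0.20 in DJ526 against Ctrl (SE 0.075, limma adjusted p = 0.377) without overlap, at 7.14, 7.13 and 7.15 beside 7.35, 7.38 and 7.30. It was 0.069 with the slide as a fixed block, and a second bright probe of Rps27a had 0.26, 0.25 and 0.21 in RS, DJ and DJ526 against Ctrl with overlapping groups, so that its direction is not settled. Its RS mice ranged from 7.13 to 7.39 and its DJ mice from 7.18 to 7.31.

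The other members named for their known roles are given by their ranges. Rpl4, whose loop reaches into the peptide tunnel, Rpl13a, which leaves the ribosome to silence inflammatory messengers, Rpl38, altered in the Tail short mouse, and Rpl39, which lines the tunnel, had log2 changes of -0.083 to 0.068 in the 5 comparisons between 2 groups, with a SE of 0.060 to 0.076. Only Rpl39 in DJ526 against DJ was without overlap among them. Rps3 at the entry channel for messenger RNA and Rpsa, also known as the laminin receptor, had log2 changes of -0.083 to 0.031, and Rpsa lay below DJ and below RS in DJ526 without overlap. A dimmer second probe of Rps3 lay above Ctrl without overlap on all 3 test diets, by 0.27, 0.13 and 0.26. The lowest log2 changes of Rpl22, which has the paralog Rpl22l1, and of Rps14, lost in the 5q- syndrome, were -0.15 and -0.14, with overlapping groups in the 5 comparisons. Rps19, the gene most often mutated in Diamond-Blackfan anemia, was at 4.82, 4.73 and 4.73 in Ctrl and 4.70, 4.67 and 4.60 in DJ526, a change of -0.10 (SE 0.082) without overlap that was 0.22 with the slide as a fixed block. Of the 15 members mutated in that disease, 5 lay below Ctrl and 1 above without overlap in DJ526, with a median change of -0.078, where 8.08% of all probes lay below and 12.5% above. The 1 above was Rps29, whose probes gave opposite directions. Of those below, Rps19, Rps26 and Rpl11 were above 0 with the slide as a fixed block. Among probes in the level range of the members 64.7% were below 0 in DJ526 against Ctrl.

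Paralogs of restricted expression were dim. Rpl3l, the form of heart and skeletal muscle, was well above background on 0 of 3 Ctrl, 0 of 3 RS, 1 of 3 DJ and 3 of 3 DJ526 arrays, at -7.23, -6.91 and -5.92 in DJ526. It was at least 1.28-fold higher in DJ526 than in Ctrl and at least 1.22-fold higher than in RS, taking the lowest signal well above background as the floor of an array (limma adjusted p = 0.611 and 0.902). Both bounds rest on DJ526 replicate 3, since without it the DJ526 mean was -7.07 and the floors were -7.04 and -6.97, and with the slide as a fixed block the log2 change against Ctrl was -0.42. Rpl39l, a form of the testis, was well above background on 4 of 12 arrays, and in Ctrl, with 2 such arrays, it was at least 1.26-fold higher than in DJ, with none, a bound that is lost without Ctrl replicate 2. Rpl10l, another form of the testis, was well above background on 10 arrays. Rpl10l was at -6.45, -6.51 and -6.35 in DJ and -5.80, -5.93 and -5.61 in DJ526, a change of 0.66 (SE 0.34, limma adjusted p = 0.557) that was -0.65 with the slide as a block. RS replicate 3, on the slide of DJ526, was at -5.39 and the other RS arrays at -7.01 and -6.37.

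Rps27l, a p53 target with a level near that of the constitutive members, lay below Ctrl without overlap in RS and in DJ526, by -0.091 and -0.11 (SE 0.060), which were 0.048 and 0.0072 with the slide as a fixed block. Its Ctrl mice were at 6.22, 6.20 and 6.20, its RS mice at 6.13, 6.07 and 6.14 and its DJ526 mice at 6.07, 6.09 and 6.13. DJ replicate 1 was at 6.26 and DJ replicates 2 and 3 were at 6.12 and 6.11. Rps4l ranged from 0.16 to 2.12 over the 12 arrays, and its groups overlapped in the 5 comparisons.

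The members varied together from mouse to mouse. The median over the 81 of the deviation from their own means was 0.099, 0.042 and -0.014 in Ctrl, -0.024, 0.053 and -0.075 in RS, 0.069, -0.0014 and -0.040 in DJ and -0.065, -0.023 and -0.025 in DJ526. Ctrl replicate 1 had 71 of 81 members above their own mean, RS replicate 2 also 71, and DJ526 replicate 1 only 4. Mice of one diet thus differed in the class about as much as diets did, with SDs within a group of 0.024 to 0.064. The correlation of a member with the median of the other 76 over the 12 arrays had a median of 0.745 and was over 0.8 for 30 of 77. It was below 0 for Rpl3 (-0.611), Rps21 (-0.365), Rpl29, Rps29, Rps4x and Rps9. All points of these correlations share the scaling of the array, and they include differences between diets and slides. Between pairs of the 77 the median correlation of deviations within a group was 0.497. Other probes in the same range of levels had medians of 0.035 in Ctrl replicate 1, 0.031 in RS replicate 2 and -0.078 in DJ526 replicate 1. They thus moved with the members there, but in DJ replicate 2 they were at 0.044 beside -0.0014 for the members.

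On slide 1, DJ replicate 1 had a median change of 0.021 against the 3 Ctrl arrays, with 53 of 81 members above 0. On slide 2, DJ replicates 2 and 3 had -0.025 against RS replicates 1 and 2, with 22 above 0, and on slide 3 the DJ526 arrays had 0.019 against RS replicate 3, with 55 above 0. No slide gives a value for RS or DJ526 against Ctrl, and the fit with the slide as a block links them only through the DJ and RS arrays.

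**Figure D5:**
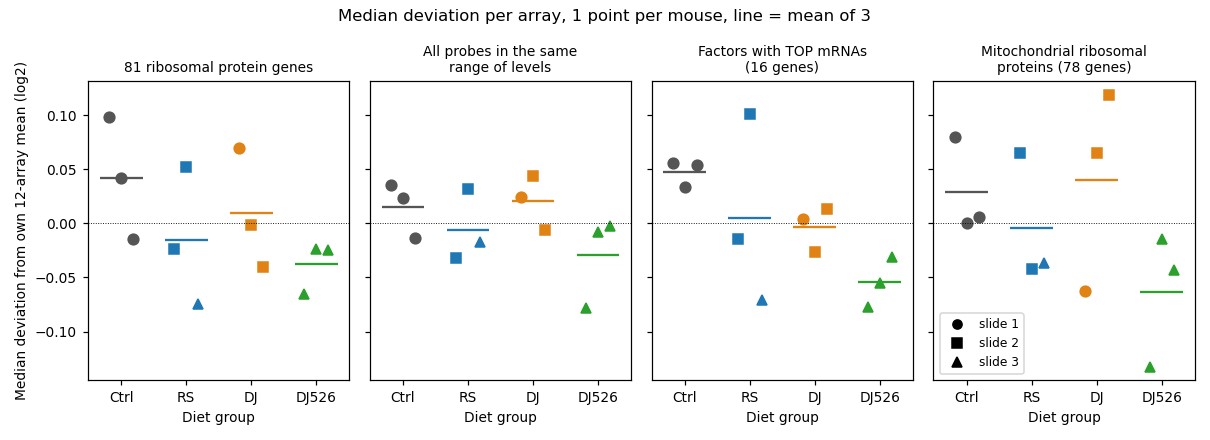
Median deviation from the 12-array mean on the log2 scale, 1 point per mouse with its slide as the marker and a line for the mean of 3. The panels show the 81 ribosomal protein genes, the probes in the same range of levels, 16 factors with TOP messengers and 78 mitochondrial ribosomal proteins. In the second panel all probes of member genes are left out, whereas the 1672 probes of the text include members. The points of a diet spread about as widely as the diets differ, and the 3 DJ526 points lie below 0 in all 4 panels.

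Other probes of the same genes mostly had the same sign. Of 85 other probes of 50 members, 64, 56, 66, 57 and 61 had the sign of the brightest probe in the 5 comparisons. Their median change in DJ526 against Ctrl was -0.080. Only for Rps29 in DJ526 against Ctrl did 2 probes lie without overlap in opposite directions. The brightest was at 6.78, 6.80 and 6.80 in Ctrl and 6.83, 6.81 and 6.85 in DJ526 (0.039), and another at 6.40, 6.45 and 6.36 and 6.30, 6.19 and 6.33 (-0.13), so that no direction can be given for Rps29.

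Other genes of the translation machinery were read from lists, in none of which limma called a gene in any comparison. No slide held Ctrl together with RS or DJ526, or DJ together with DJ526. The lists were read without the slide in the fit, and no values with it as a block are given. For the ribosomal protein genes the median in DJ526 against Ctrl was -0.082 without the slide and 0.0995 with it as a fixed block. For all probes it was 0.021 and -0.125. Without the slide, 64.7% of probes in the level range of the ribosomal protein genes were below 0 as well. The direction of the lists in these comparisons is thus not settled. Of the 16 translation factors with TOP messengers, 7 lay below Ctrl without overlap and none above in DJ526, with a median change of -0.12, where 8.08% of all probes lay below and 12.5% above. Eef1b2, a nucleotide exchange factor for elongation factor 1A, had log2 changes of -0.23 in RS and -0.22 in DJ526 against Ctrl (SE 0.069, limma adjusted p = 0.629 and 0.292). Eif3k, a subunit of initiation factor 3, had log2 changes of -0.25 in DJ526 against Ctrl and -0.27 against DJ (SE 0.083, limma adjusted p = 0.325 and 0.372). Of the 29 other initiation and elongation factors, 5 lay below Ctrl and 1 above in DJ526, against the same shares of all probes, the latter being Eif5 (0.18, SE 0.071), which activates the GTPase of initiation factor 2.

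Of 58 ribosome biogenesis genes, 11 lay below Ctrl and 3 above in DJ, with a median of -0.071, and 9 and 3 in DJ526, with -0.054. Of all probes 4.87% lay below and 4.49% above in DJ, and 8.08% and 12.5% in DJ526. The values of this list are without the slide in the fit as well. Riok2, a kinase of late small subunit maturation, had log2 changes of -0.45 in DJ against Ctrl and 0.49 in DJ526 against DJ (SE 0.14, limma adjusted p = 0.819 and 0.350). Both values of Riok2 use the same DJ arrays, so that they are not separate results. Gar1, a protein of the H/ACA particles that guide pseudouridylation, had a log2 change of -0.38 in DJ526 against Ctrl (SE 0.099, limma adjusted p = 0.221). Of 27 genes of TOR signalling, 3 lay above Ctrl and none below in DJ, with a median of 0.0032, where 4.49% of all probes lay above and 4.87% below. Among them were Sesn3 and Sesn2, sestrins that restrain mTORC1, by 0.44 and 0.41 (limma adjusted p = 0.75 for both).

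The 78 mitochondrial ribosomal protein genes, whose products form the separate ribosome of mitochondria, had a median change of -0.10 in DJ526 against Ctrl and -0.094 against DJ. In DJ526, 22 lay below Ctrl and 0 above, and 16 lay below DJ and 1 above, both without overlap between groups, where 8.08% and 12.5% of all probes lay below and above Ctrl and 6.29% and 12.1% below and above DJ. The same 2 comparisons gave 25 and 18 of the 81 cytosolic members below. In DJ526 against RS the 2 classes differed. There 13 mitochondrial genes lay below and 1 above, with a median of -0.061, where 6.15% and 4.99% of all probes lay below and above. The cytosolic members had a median of -0.026, and their share below was under that of all probes. The median of the mitochondrial genes in RS and DJ against Ctrl was -0.033 and 0.0024. All values of the mitochondrial genes are without the slide in the fit, and no slide held DJ526 together with Ctrl or DJ. Whether their lower values in DJ526 hold with the slide as a block is not shown.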

How the data were processed

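Total liver RNA was hybridised to Agilent one-colour mouse arrays. The authors scanned the arrays and extracted them with Feature Extraction 11.5.1.1, and the deposited files hold the processed signal intensity of each spot. The deposited table of processed values was the same intensity times 1 factor per array. From these, spots of a probe were averaged, values were divided by the 75th percentile of their array, and log2 was taken. Genes were named through the accession of the probe and RefSeq; 27508 of 39429 probes had a name. No spot was saturated.

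Groups came from the labels. All 4 groups were fitted together with limma 3.58.1 in R 4.3.3 (lmFit, eBayes with a variance trend), with Benjamini-Hochberg adjustment over 39429 probes and a threshold of 0.05; summaries used Python 3.11.15. Standard errors are those of the fit and SDs those of 3 mice. The number of arrays limits the precision. The fit was tested on simulated data. The members and lists were chosen with earlier results of these data known. Genes were named where they were called; where groups did not overlap, up to 2 higher and 2 lower with the largest change per comparison; for the 3 largest and 3 smallest SDs; for opposite probes; and from a list of known roles and paralogs. In the other lists, up to 2 genes per comparison were eligible. Alternatives covered scaling, background correction (normexp with an offset of 50), filtering, the slide and the replicate number as blocks, the methods' t-test, other probes, and leaving out each mouse.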

Additional observations from a re-analysis of the deposited data

How the results depend on the processing

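No ribosomal protein gene was called by limma in any of the 8 comparisons under any of 27 to 29 alternatives per comparison; the lowest adjusted p in any of them was 0.117 (DJ526 against DJ, no scaling). The median log2 change of the members moved with array median scaling to -0.125 (RS against Ctrl), -0.151 (DJ526 against Ctrl) and -0.135 (DJ526 against DJ), and the median range among the 4 diets to 0.175. With no scaling it was -0.138 (DJ against Ctrl), 0.101 (DJ526 against DJ), 0.0349 (DJ526 against RS) and 0.163 (difference between the effects of resveratrol), where the median of all probes itself was -0.126, 0.193, 0.0583 and 0.177. For DJ526 against DJ it was 0.000445 with quantile normalization and 0.0108 from the deposited table. With the slide as a block the median of the members was 0.0558 (RS), 0.0995 (DJ526) against Ctrl, 0.0488 (DJ526 against DJ) and 0.0325 (rice against starch and sucrose). The median of all probes was then -0.0089, -0.125, -0.103 and -0.061. As a random block the slide left the medians of the members below 0 in the 5 comparisons between groups. With normexp, which kept 70 of the 81 members, the median range among diets was 0.175. With the median pixel signal 4 members passed the Z ratio criterion in RS against Ctrl. The share of all probes at that setting is not given, so that this count cannot be judged. With the processed signal the criterion held for 0 members and 1.69% of all probes, a share that does not apply to the median pixel signal. Among the genes named for their change, those of opposite sign were, with the slide as a fixed block (where 67 of the 81 members were above 0 in DJ526 against Ctrl), Rpl3 (-0.13) and Rpl36a (0.0022) in RS, Rpl36a (0.12) and Rps26 (0.084) in DJ526 against Ctrl and Rpl10l (-0.65) in DJ526 against DJ; with no scaling, Rps9 in DJ (-0.034) and Rpl41 in DJ526 against DJ (0.0071); and with normexp, Rps21 in DJ526 against RS (0.048). The cause was not tested. Leaving out 1 mouse gave medians of -0.0897 to -0.0240 (RS against Ctrl), -0.0578 to 0.0089 (DJ against Ctrl), -0.112 to -0.0507 (DJ526 against Ctrl), -0.0721 to -0.0288 (DJ526 against DJ), -0.0537 to 0.0070 (DJ526 against RS), -0.0427 to -0.0061 (rice), -0.0378 to 0.0385 (difference between effects) and 0.108 to 0.128 (range among diets). The difference between effects was above 0 without Ctrl replicate 2 or 3, DJ replicate 1, RS replicate 2 or DJ526 replicate 1. Replicate numbers did not pair the mice (correlations of -0.354 to 0.407, 6 of 18 pairs over 0.1, 6 of 12 arrays closest to their own number); with the replicate number as a block 0 members were called and the medians against Ctrl were -0.0540 (RS), -0.0282 (DJ) and -0.0821 (DJ526). The bounds of Rpl3l and Rpl39l without 1 array were added after seeing the data.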
